A study of Saccharomyces cerevisiae with 2 samples.

Results

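The 5 auxotrophic marker genes LYS2, LEU2, URA3, MET17 and HIS3 were examined in the in vivo nucleosome data of Saccharomyces cerevisiae, out of 6477 genes listed by RefSeq for this species. They were taken by name and position, each with a flank of 2 kb on either side, and not by their read density. The gene edges used here are good to 50 bp. In 3 of the 5 genes neither library held a single read midpoint, and in URA3 and HIS3 both libraries held more than the nuclear mean. Yeast was grown in rich YPD medium and fixed with 1% formaldehyde, and chromatin was cut with 3.5 units of micrococcal nuclease (MNase), which digests linker DNA faster than DNA wrapped around histones. Fragments cut from a gel at about 147 bp were sequenced from one end with 36 cycles in 2 libraries of 1 condition. Replicate 1 held 21973866 reads and replicate 2 held 19288900. The distance between plus-strand and minus-strand 5′ ends gave a shorter fragment, of 94 bp in replicate 1 and 85 bp in replicate 2. The labels do not say whether the libraries came from separate cultures, so an SD over them may be technical, and with no second condition no p-value is given.

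Each marker gene encodes an enzyme that a cell needs when an amino acid or a pyrimidine is missing from the medium. LYS2 encodes alpha-aminoadipate reductase of lysine synthesis, LEU2 beta-isopropylmalate dehydrogenase of leucine synthesis, HIS3 imidazoleglycerol-phosphate dehydratase of histidine synthesis, and URA3 orotidine-phosphate decarboxylase of pyrimidine synthesis. MET17, also named MET15 and MET25, encodes the O-acetylhomoserine sulfhydrylase that takes up sulfide into methionine and cysteine precursors. Laboratory strains of the BY family carry deletions of such genes in different combinations, so that a transformed copy can be selected on medium that lacks the nutrient. Nucleosomes can be mapped only on DNA that the cells hold and that is unique enough for a short read to be placed. Reads from a deleted gene, or from a copy that is not unique, are absent whatever the chromatin.

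The sample labels give neither strain nor genotype. A supplementary table of the paper lists the yeast nucleosome data under BY, and its text names BY4716 as the BY parent of the open chromatin experiments. BY4716 is known as a lysine auxotroph with the LYS2 gene deleted and the other marker genes of this set intact. LEU2 and MET17 also lacked reads in the present libraries, and whether these came from BY4716 was not tested.

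Read density was measured as midpoints of the deposited 150 bp read intervals per kb. The nuclear mean was 1823 midpoints per kb in replicate 1 and 1599 in replicate 2. LYS2, on the minus strand of chromosome 2 from 469750 to 473930, held 0 midpoints in both libraries. A count of 0 allows up to 3 reads, which is 0.0327% of the number expected at the density of its own flanks in replicate 1 and 0.0321% in replicate 2. Those flanks were well filled, with 2364 and 2323 midpoints per kb upstream of LYS2 in replicates 1 and 2, and 2027 and 2145 downstream. The limits cover counting error only, since amplified reads are not independent molecules.

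LEU2, on the plus strand of chromosome 3 from 91320 to 92420, also held 0 midpoints in both libraries. Its downstream flank held 2251 midpoints per kb in replicate 1 and 1918 in replicate 2. Its upstream flank was empty too, with 1 midpoint per kb in replicate 1 and 0 in replicate 2. A Ty retrotransposon and a tRNA gene lie upstream of LEU2 in the reference strain, and the part of repeated sequence in this empty flank was not tested. With the empty flank included, a count of 0 in LEU2 allows 0.242% of the number expected at flank density in replicate 1 and 0.284% in replicate 2.

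MET17, on the plus strand of chromosome 12 from 732540 to 733880, was the third gene with 0 midpoints in both libraries. Its flanks held fewer reads than those of LYS2, with 717 and 606.5 midpoints per kb upstream in replicates 1 and 2 and 908 and 792.5 downstream. The count of 0 allows 0.275% of the number expected at flank density in replicate 1 and 0.320% in replicate 2. The flanks of MET17 stood at 0.39 ± 0.0099 and 0.50 ± 0.0018 of the nuclear mean (mean ± SD, n = 2 libraries), upstream and downstream. Of 12038 end-to-end windows of 1 kb on the nuclear chromosomes, 2.40% held no midpoint in either library, against 3 of the 5 marker genes. These 3 genes were longer than the windows, with 4181 bp for LYS2, 1101 bp for LEU2 and 1341 bp for MET17. The share of empty windows of those lengths was not counted.

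**Figure D1:**
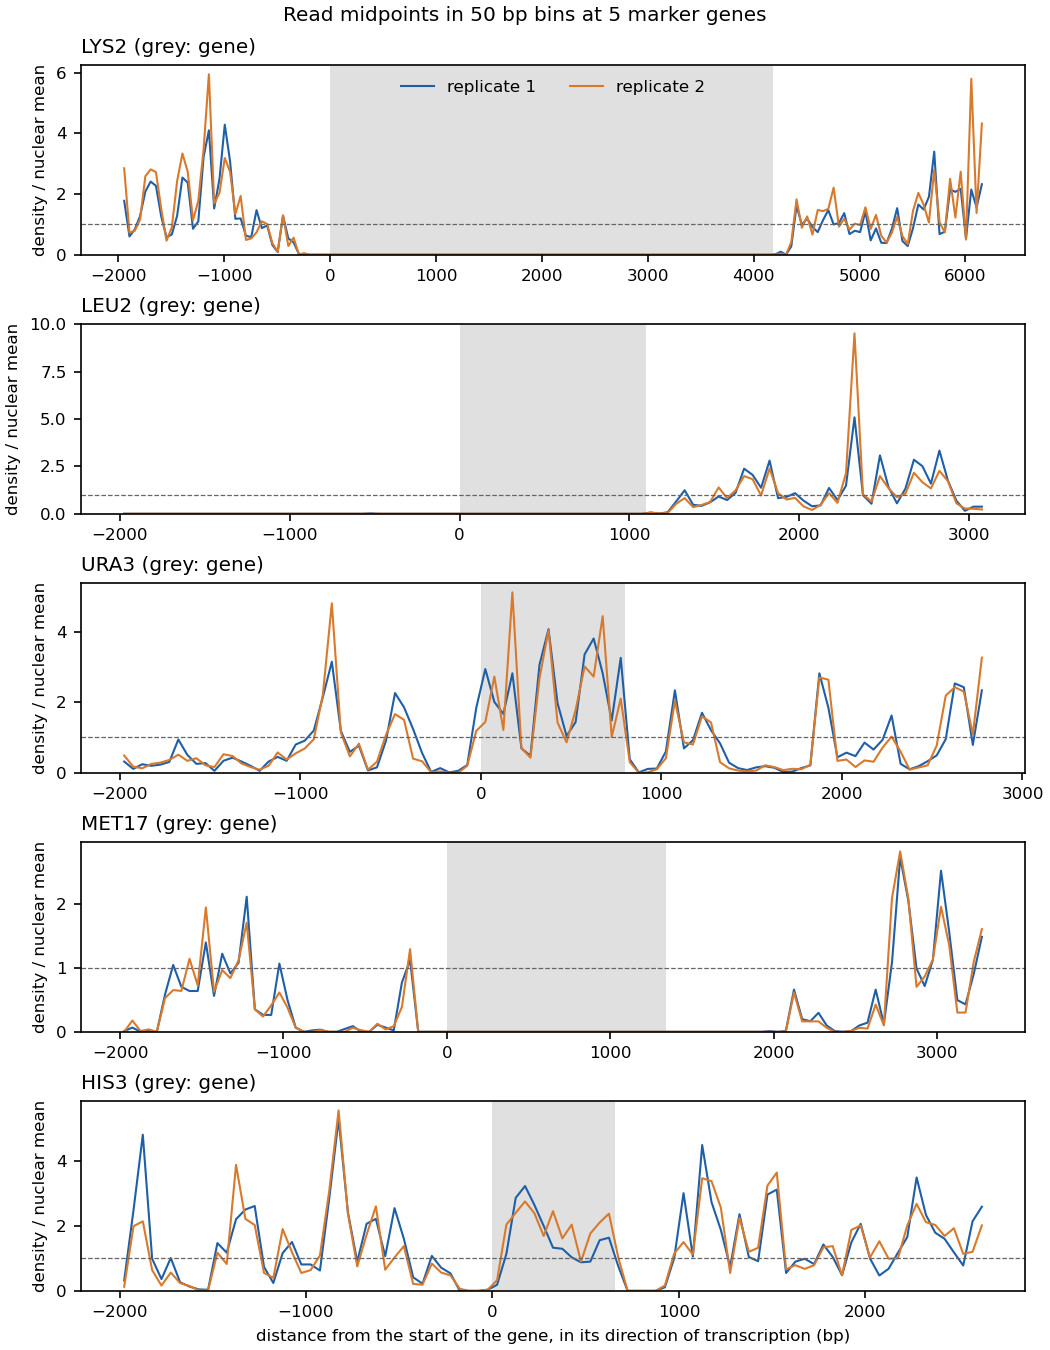
Read midpoints in bins of 50 bp relative to the nuclear mean of each library (vertical axes, linear from 0; dashed line at 1), plotted against the distance from the start of each gene in its direction of transcription (bp), with the gene in grey and a line for each of the 2 libraries. LYS2, LEU2 and MET17 are empty from edge to edge, the LEU2 upstream flank is empty too, and URA3 and HIS3 are filled in both libraries.

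URA3, on the plus strand of chromosome 5 from 116170 to 116970, held 3365 midpoints in replicate 1 and 2854 in replicate 2. This was 4201 and 3563 midpoints per kb, or 2.27 ± 0.054 of the nuclear mean (mean ± SD, n = 2 libraries). The flanks held far fewer, at 0.63 ± 0.027 of the nuclear mean upstream and 0.77 ± 0.0029 downstream. The gene was therefore 3.24 ± 0.0078 times as dense as its flanks, a gap much larger than the spread between the libraries. Among 15031 end-to-end windows of the same length, 98.6% in replicate 1 and 98.3% in replicate 2 held fewer midpoints than URA3. When reads that shared position and strand were counted as 1, which also limits how many a crowded gene can hold, URA3 was 1.93 times as dense as its flanks. Because URA3 and HIS3 are also used as markers added elsewhere in the genome, their reads may come from the native gene, from an added copy or from both. Reads of 36 bases inside the gene cannot tell these apart, so the densities and occupancies of both genes are those of all their copies.

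HIS3, on the plus strand of chromosome 15 from 721950 to 722610, held 1903 midpoints in replicate 1 and 2000 in replicate 2. This was 2879 and 3026 midpoints per kb, or 1.74 ± 0.22 of the nuclear mean. Upstream the density was 1.18 ± 0.11 and downstream 1.43 ± 0.020 of the nuclear mean (mean ± SD, n = 2 libraries). HIS3 was 1.18 times as dense as its flanks in replicate 1 and 1.49 times in replicate 2, so the excess was of the same order as the difference between the libraries. Among 18215 windows of its length, 89.4% and 95.04% held fewer midpoints in replicates 1 and 2. The mean ratio was 1.33, both with all reads and when shared positions were counted as 1.

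**Figure D2:**
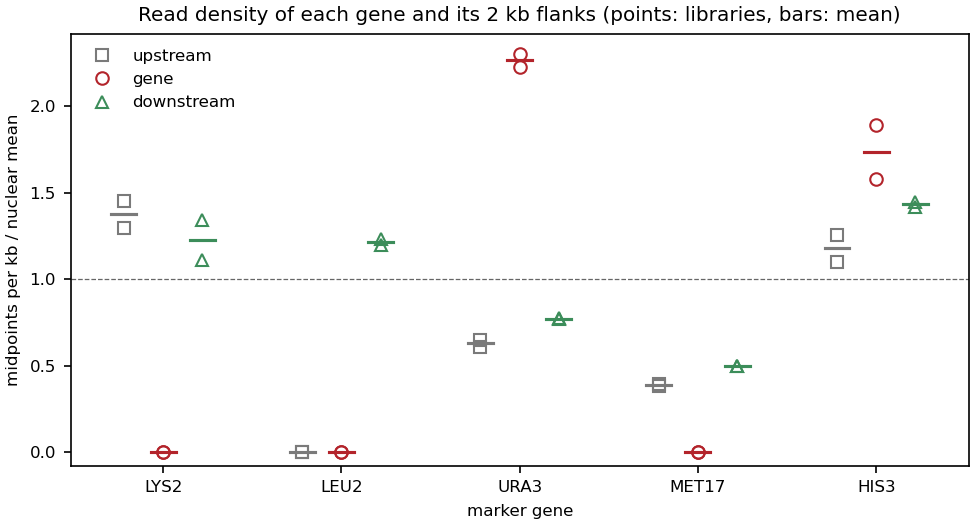
Midpoints per kb relative to the nuclear mean (vertical axis, linear; dashed line at 1) for each marker gene and its upstream and downstream 2 kb flanks, with a point per library and a bar for the mean of both. The 3 empty genes lie at 0, and URA3 stands apart from its flanks at 2.30 and 2.23, while the HIS3 points of 1.58 and 1.89 lie closer to their flanks.

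The edges of the empty stretches were then traced from the 5′ ends of the reads. A read that points into missing sequence can be placed only if its 36 bases end before the edge, whereas a read on the other strand can start at the edge itself. The outermost sequenced base was therefore determined for each strand and library. On the lower side of the LYS2 stretch, beyond the stop codon, the outermost bases were 469674 for plus-strand and 469653 for minus-strand reads in replicate 1, and 469650 and 469659 in replicate 2. On the higher side, upstream of the LYS2 start, they were 474193 and 474192 in replicate 1 and 474212 and 474194 in replicate 2. Between 469674 and 474192 no sequenced base was found in either library over 4517 bp. The stretch thus reached 76 bp past the end of LYS2 towards RAD16, a DNA repair gene, and 262 bp before its start towards TKL2, a transketolase gene.

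The higher edge of the LEU2 stretch was also well defined. There the outermost bases were 92485 for plus-strand and 92476 for minus-strand reads in replicate 1, and 92484 and 92476 in replicate 2. The edge at 92476 lay 56 bp past the end of LEU2, on the side of NFS1, the gene of the mitochondrial cysteine desulfurase. On the lower side no edge belonged to LEU2 itself. Replicate 1 held 2 reads at a single position, 90890, which ended the stretch at 1585 bp. Replicate 2 held none there, and its stretch ran on down to 86757, over 5718 bp. The lower end of the empty stretch around LEU2 cannot be placed from these reads.

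At MET17 the lower edge was sharp and the higher edge was not. Before the start of MET17 the outermost bases were 732284 for plus-strand and 732282 for minus-strand reads in replicate 1, and 732287 and 732284 in replicate 2. These 4 values lay within 5 bp of each other, and 253 bp before the start of the gene. Beyond the stop codon replicate 1 held 2 reads that reached down to 734526, 646 bp past the end, whereas the first reads of replicate 2 reached 734681, 801 bp past the end. A stretch of 2238 bp held no sequenced base in either library. The sequence past MET17 that still held reads began with few of them, and a tRNA gene lies next in that direction.

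The edges differed in how closely the 4 outermost bases agreed. Their range was 5 bp at MET17, 9 bp at LEU2, 20 bp before the LYS2 start and 24 bp beyond its stop codon. Sharp edges are common beside empty stretches in these libraries. Of 1220 edges of nuclear stretches of over 150 bp without a sequenced base, 62.5% had their 4 outermost bases within 10 bp. Counted between read 5′ ends in both libraries, 145 nuclear stretches of at least 1000 bp were empty, and that of LYS2 (4533 bp) ranked 27 and that of MET17 (2241 bp) ranked 69 in length. LEU2 ranked 106 with 1593 bp, a length set by the 2 reads of replicate 1, and without replicate 1 its stretch of 5761 bp was longer than that of LYS2.

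HIS3 held reads, yet its reads stopped at borders close to both ends of the coding region, a narrow one at its end and a sparsely covered one at its start. At its end the outermost bases were 722609 for both strands in replicate 1, and 722608 for plus-strand and 722609 for minus-strand reads in replicate 2. This edge lay 1 bp inside the end of HIS3 as given here. The next sequenced base in the direction of DED1, an essential RNA helicase gene, followed 209 bp beyond the end of the gene, and the stretch between them held none. At the start of HIS3 the outermost bases were 721946 for both strands in replicate 1, and 721942 and 721956 in replicate 2. Few reads lay there. Midpoint density in the 50 bp bins centred at -25 and 25 bp from the start was 0.033 and 0.19 of the nuclear mean in replicate 1. In replicate 2 it was 0.038 and 0.33. Towards MRM1, the divergent gene of a mitochondrial rRNA methyltransferase, no sequenced base was found over 198 bp, down to 721743. The outer edges of these stretches were less even, with a range of 39 bp on the side of MRM1 and 95 bp on the side of DED1.

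No read in either library thus bridged the empty stretch on either side of HIS3, while reads reached up to 8 bp before its start as given here, well within the 50 bp to which that start is known. The HIS3 promoter is known for poly(dA:dT) tracts and low nucleosome occupancy. Nucleosome-free DNA beside the gene and DNA that the strain lacked cannot be told apart in these stretches. URA3 had no comparable borders. The longest stretches without a sequenced base near it were 71 bp upstream, from -229 to -157 bp relative to its start, and 27 bp downstream, and the 4 outermost bases beside them ranged over 24 to 104 bp.

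**Figure D3:**
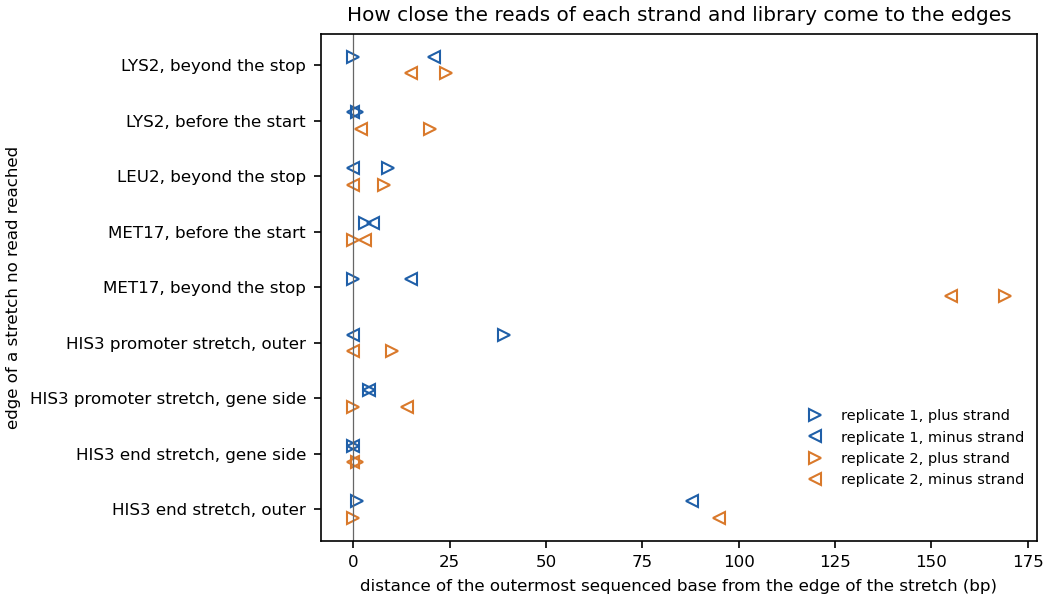
Distance (bp, horizontal axis) of the outermost sequenced base from the edge of each stretch that no read reached, for plus-strand reads (triangles to the right) and minus-strand reads (triangles to the left) of the 2 libraries (colours). The reads of all strands and libraries meet within 1 bp at the end of HIS3 and within 5 bp before MET17, but spread over 169 bp beyond the stop codon of MET17.

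The share of reads on each strand differed between the marker loci, and was highest for the plus strand at URA3. In the gene itself 65.2% of the 5′ ends lay on the plus strand in replicate 1 (Wilson 95% confidence interval 63.5% to 66.8%) and 65.0% in replicate 2 (63.2% to 66.7%). In the upstream flank the share was 77.0% in replicate 1 (75.4% to 78.6%) and 72.2% in replicate 2 (70.2% to 74.2%). In windows of 5 kb with at least 1000 reads the share lay between 37.6% and 62.7% for the middle 90% of the genome in replicate 1, and between 41.0% and 59.1% in replicate 2. Over URA3 with both flanks it was 66.6% and 64.7%, above those ranges in each library. The intervals cover counting error only and treat amplified reads as independent. The HIS3 gene had 58.6% of its 5′ ends on the plus strand in replicate 1 and 56.6% in replicate 2. LEU2 with its flanks was low, at 44.4% in replicate 1 and 39.0% in replicate 2, the latter below the range of that library. All of its reads but 2 in replicate 1 lay in the downstream flank of 2 kb, so this share covers less sequence than the windows of 5 kb. LYS2, MET17 and HIS3 with their flanks lay within the range in both libraries, from 45.8% to 55.0%, although the upstream flank of MET17 alone stood at 67.3% and 61.3%.

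To locate nucleosomes, the 5′ ends of replicate 1 were moved inward by 47 bp and those of replicate 2 by 42 bp to give the read centre. These moves came from the strand distances of the whole libraries, 93 and 84 bp. Over gene and flanks the distance was shorter, 74 bp in both libraries at URA3, and 75 and 63 bp at HIS3 in replicates 1 and 2. There the moves carried the strands past each other, and a shorter move was not tested. After Gaussian smoothing (SD 20 bp) the highest maxima at least 147 bp apart were taken as positions. Occupancy is the number of read centres within 73 bp of a position relative to the nuclear mean, and its median over 49471 nuclear positions was 1.10. At URA3 and HIS3 with their flanks, 39 positions were called. Of the 37 positions of replicate 1 there, 83.8% had one of replicate 2 within 20 bp, close to the 80.0% found over the nuclear genome.

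Inside URA3 there were 3 positions, at 123, 342 and 620 bp from the start of the gene. The position at 123 bp had an occupancy of 2.17 in replicate 1 and 3.05 in replicate 2. That at 342 bp had 3.09 and 2.87, and that at 620 bp had 3.40 and 3.41. All lay above the upper quartile of nuclear positions, 1.70, and their occupancy exceeded that of 92.6%, 95.4% and 97.3% of them. The libraries placed them within 10 bp of each other. Around the position at 123 bp the read centres were narrowly spread, with an SD of 21.7 bp against a nuclear median of 29.2 bp. The base with the most 5′ ends of replicate 2 at this locus lay close by, at 79 bp, with 194 reads. All of them were counted, and their part in the narrow spread and the occupancy was not tested.

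The exclusion zone left out further maxima inside URA3. Between 100 bp before its start and its end there were 6 maxima above 0.4 of the nuclear mean, at -3, 123, 342, 486, 620 and 750 bp. The maximum at the start of the gene stood at 3.05 of the nuclear mean in replicate 1 and 1.74 in replicate 2, and that at 750 bp at 3.60 and 2.62. With an exclusion zone of 120 bp each of the 6 was called. Their median distance was 134 bp, shorter than the 147 bp of DNA that a nucleosome core holds. The fragments of the whole libraries were shorter still by the distance between the strands, at 94 bp in replicate 1 and 85 bp in replicate 2. At URA3 with its flanks the strand distance was 74 bp in both libraries.

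Outside URA3 the pattern was uneven. Upstream, towards GEA2, a guanine nucleotide exchange factor gene, positions at -858 and -483 bp had occupancies of 2.57 and 1.69, whereas those farther out lay at or below 0.62. Downstream, past TIM9, a gene of a mitochondrial import chaperone, the position at 1902 bp was one of the sharpest, with an occupancy of 1.89 and an SD of 15.4 bp. Only 0.87% of nuclear positions were narrower. The base with the most 5′ ends of replicate 1 at this locus lay near it, at 1937 bp, with 88 reads, and their part in the narrow spread was not tested. Between 1336 and 1850 bp the density stayed below 0.4 of the nuclear mean over 515 bp, the widest such interval at this locus. RPR1, which encodes the RNA component of RNase P, follows TIM9 in the annotation.

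HIS3 also held 3 positions, at 113, 391 and 587 bp from its start. Their occupancies were 2.16, 1.12 and 1.53 in replicate 1 and 2.26, 1.68 and 2.16 in replicate 2. Called alone, replicate 1 gave 2 positions and replicate 2 gave 3, and each of those of replicate 1 had one of replicate 2 within 20 bp, as was also the case for the 3 positions inside URA3. The positions called from both libraries together were another choice among the same maxima. That at 113 bp had one in replicate 2 at a distance of 2 bp, but the nearest of replicate 1 was 132 bp away, and that at 391 bp had none within 100 bp in either library. The maximum at 252 bp was almost as high as that at 113 bp, at 3.40 against 3.65 of the nuclear mean. Both libraries alone had a position close to the maximum at 252 bp, whereas the combined density, in which it lay 139 bp from the maxima on either side, left it out. The read centres were more widely spread than at the URA3 position at 123 bp, with SDs of 30.1, 33.4 and 34.0 bp.

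Both genes had a depleted interval before the start. At URA3 the smoothed density fell below 0.4 of the nuclear mean from -348 to -72 bp relative to the start, over 277 bp, and it was 262 bp wide in replicate 1 and 297 bp in replicate 2. At HIS3 it was below that level from -235 to 45 bp, over 281 bp, with 283 and 278 bp in the libraries. The density there fell to 0.00087 and 0.00013 of the nuclear mean at URA3 in replicates 1 and 2, and to 0 in both at HIS3. A single base below 0.4 is frequent, since 90.7% of 24079 nuclear windows of 500 bp held one in both libraries. The nuclear share of intervals this wide or this low was not counted. At HIS3 the interval contained the stretch without a sequenced base and extended beyond it on both sides. A second interval of 279 bp began 669 bp from the start, just past the end of the gene.

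**Figure D4:**
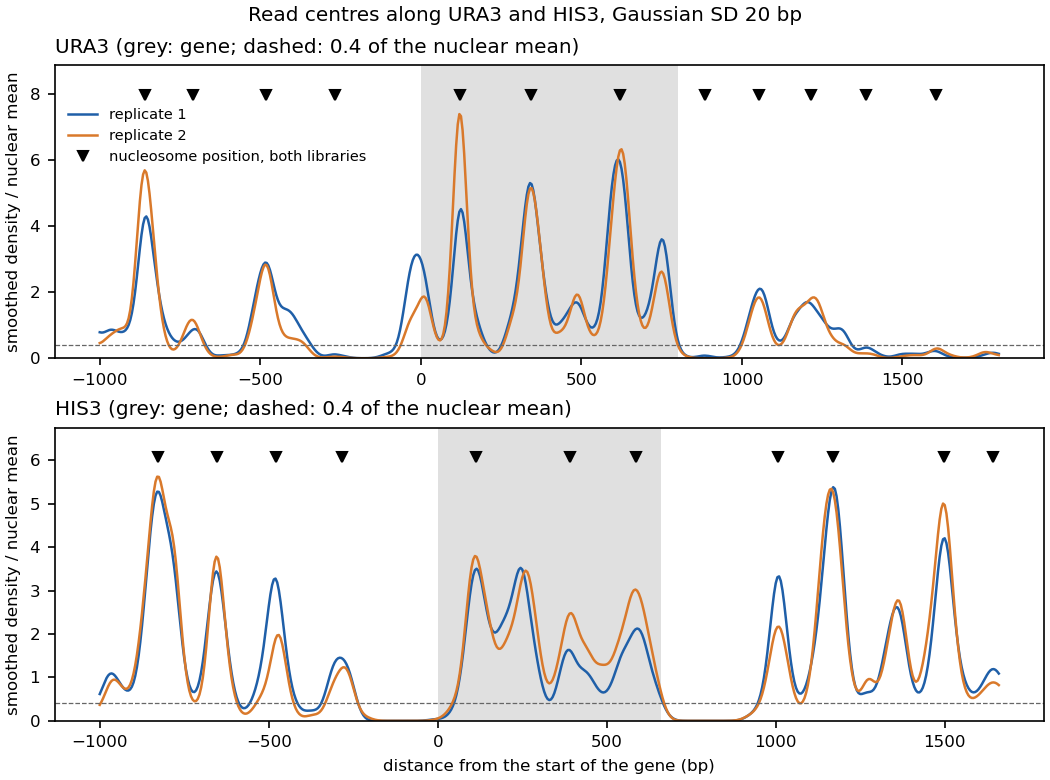
Smoothed density of read centres relative to the nuclear mean (vertical axes, linear from 0) against the distance from the start of URA3 and HIS3 (bp), a line per library, with the genes in grey, triangles at the positions called from both libraries and a dashed line at 0.4. URA3 shows peaks at 123, 342 and 620 bp with lower ones between them, and HIS3 lies between intervals in which both lines are at or near 0.

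Next to the empty genes the nucleosomes of the flanks ended at different distances from the edge. At LYS2 the nearest position upstream lay at -397 bp from the gene start, 135 bp outside the edge, with an occupancy of 0.72 in both libraries. The 150 bp outside that edge held 136 plus-strand and 6 minus-strand 5′ ends in replicate 1, and 102 and 8 in replicate 2. Positions then followed at -640, -807, -1019 and -1184 bp, and occupancy rose to 3.31 at the last of these. On the other side a position lay 173 bp outside the edge, at 4429 bp from the start, with an occupancy of 0.93 in replicate 1 and 0.96 in replicate 2. Between it and the edge was a weak position with an occupancy of 0.039.

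At LEU2 the nearest position was 133 bp outside the edge, with an occupancy of 0.81 in replicate 1 and 0.59 in replicate 2. The 150 bp outside the edge held 187 plus-strand and 9 minus-strand 5′ ends in replicate 1, and 120 and 6 in replicate 2. Farther along, at 2344 bp from the LEU2 start, stood one of the sharpest positions of all, with an SD of 15.96 bp and occupancies of 2.35 and 4.05. The base with the most read 5′ ends at this locus lay close by, at 2386 bp, with 102 reads in replicate 1 and 188 in replicate 2. All of them were counted, and the part of this stack in the sharpness and occupancy was not tested. At MET17 the nearest position lay only 18 bp outside the lower edge, at -271 bp from the start, with occupancies of 0.65 and 0.61. It rested mostly on plus-strand reads. The 150 bp outside this edge held 172 plus-strand and 7 minus-strand 5′ ends in replicate 1, and 134 and 11 in replicate 2. Its SD of 13.3 bp was below that of all but 0.41% of nuclear positions. No sequenced base lay past an edge, but the inward move could carry read centres across it. At the lower MET17 edge, 732287, the outermost plus-strand 5′ ends were 732249 in replicate 1 and 732252 in replicate 2. The move placed their centres inside the empty stretch. The part of the missing reads and of the move in the low occupancy and narrow spread beside the edges was not tested. Upstream of the position at -271 bp the density stayed below 0.4 of the nuclear mean from -999 to -311 bp relative to the MET17 start.

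The agreement of the libraries was then compared locus by locus, with gene and flanks together. Here 88.2% of the replicate 1 positions at LYS2, 66.7% at LEU2 and 84.6% at MET17 had a replicate 2 position within 20 bp, and 89.5% at URA3 and 77.8% at HIS3. These shares rest on 9 to 19 positions each. Across bins of 50 bp over gene and flanks, which are not independent, replicates 1 and 2 had a Pearson's r of 0.918 at LYS2, 0.896 at LEU2, 0.895 at URA3, 0.955 at MET17 and 0.864 at HIS3, over 93 to 163 bins, and Spearman's rho was from 0.906 to 0.989. The bins of the empty genes are included in these values.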

How the data were processed

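The authors digested formaldehyde-fixed chromatin with MNase at 37 °C for 20 minutes, cut DNA of about 147 bp from a gel and sequenced it from one end. Per the labels the genome build was sacCer2. The aligner and the treatment of repeated or duplicate reads are not given in the sources used here. The deposited lines hold positions and no count or score, and every interval spans 150 bp. Starts were read as counted from 0, since 0 occurs, and positions are printed counted from 1.

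The members, their edges (rounded to 10 bp) and all settings were chosen with earlier results of these data known. The limits of 150 bp and 10 bp for edges, and the list of maxima, were added after the values were seen. Each of the 5 members is named, whatever its values, and neighbours come from RefSeq's R64 table, whose coordinates were not used. Strands were taken from the locus tags. Reads counted as at most 20 per position when the strand distance (93 and 84 bp) was measured. Both libraries were scaled to their nuclear mean before they were added. Positions with an occupancy up to 0.02 were left out. Python 3.11.15, numpy 2.4.6, scipy 1.17.1, pandas 2.3.3 and matplotlib 3.10.9 were used, and calling and gap edges were tested on simulated data. No test between conditions was possible. Sequences of the loci were not used here.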

Additional observations from a re-analysis of the deposited data

How the results depend on the processing

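LYS2, LEU2 and MET17 held 0 midpoints under each alternative run. The ratio of URA3 to its flanks was 3.25 at the strand midpoint, 3.03 with the gene narrowed by 50 bp at each edge and 1.93 with shared positions counted as 1, and from 3.23 to 3.24 without 1 library. That of HIS3 was from 1.18 to 1.49 without 1 library. The LYS2 stretch between 5′ ends, 4533 bp, was 4546 bp with 1 filled position allowed, 4553 bp on the plus and 4567 bp on the minus strand, and 4539 to 4552 bp without 1 library. The LEU2 stretch, 1593 bp, became 5761 bp with 1 filled position allowed and on the plus strand, and was from 1594 to 5761 bp without 1 library: the longer value is that without replicate 1, whose 2 reads end it. The MET17 stretch, 2241 bp, was from 2243 to 2410 bp without 1 library. The 39 positions at URA3 and HIS3 ranged from 33 to 50 over the alternatives. The matched share, 83.8%, was 65.7% with a move of 73 bp, 78.9% with shared positions counted as 1, 79.1% and 82.4% with a smoothing SD of 10 and 40 bp, and 70.3% within 10 bp. The depleted interval of URA3 was 247 bp with shared positions counted as 1, and from 262 to 297 bp without 1 library. That of HIS3 was 257 bp with shared positions counted as 1, 252 bp with a move of 73 bp, 270 and 290 bp at levels of 0.3 and 0.5, and from 278 to 283 bp without 1 library. Median spacing in URA3, 248.5 bp, was 214 bp with a move of 73 bp and from 244.5 to 251 bp without 1 library. In HIS3 it was 237 bp, and from 236.5 to 346 bp without 1 library, the longer value without replicate 2. Apart from the LEU2 reads named, the cause was not tested. Depth limits the empty genes only to the 3 reads that a count of 0 allows. No paired analysis was possible because there is 1 condition and no result comes from a test between groups.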
